A study of Mus musculus with 4 samples.

Results

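The p53 pathway was followed through 10 genes in mouse embryonic stem cells: Trp53, which encodes the transcription factor p53, its inhibitors Mdm2 and Mdm4, and 7 genes that p53 is known to activate directly, Cdkn1a, Ccng1, Bax, Ei24, Btg2, Zmat3 and Phlda3. They were taken by name from a table of 23697 loci, and each matched 1 row. Of these loci 11784 had a mean of at least 1 FPKM (fragments scaled to transcript length and to the fragments mapped) and were tested, the 10 genes among them. Cells of the WW6 line, of mixed C57/B6J, 129/Sv and SJL background, were grown without feeders in serum and leukemia inhibitory factor and transiently transfected with small interfering RNA. In 2 libraries, knockdown replicates A and B, it was directed against Kdm5b, a demethylase of lysine 4 of histone H3, and in 2 others, control replicates A and B, against GFP, and the labels call the control construct a mock. The design asked how messenger RNA levels change when Kdm5b is lowered. Whether A and B came from separate cultures is not stated in the labels. The p-values therefore reflect the spread of these libraries alone, and that spread could be technical.

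In unstressed cells p53 protein is held low because Mdm2, a ubiquitin ligase, marks it for degradation, and Mdm4, a relative of Mdm2, binds p53 and blocks its activating domain. When DNA damage or other stress frees p53, it binds a paired sequence element near its target genes and raises their transcription, Mdm2 among them, so that the pathway restrains itself. Mouse embryonic stem cells are known for abundant p53 and for a weak arrest before S phase after DNA damage.

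Kdm5b itself stood at 22.7 and 31.1 FPKM in knockdown replicates A and B, against 99.7 and 145 FPKM in control replicates A and B, which leaves a mean of 22.0% of that in controls. Even this difference did not pass limma's test (adjusted p = 0.562), so a gene that misses the threshold here is not shown to be unchanged. From the steps between low values, the depth of knockdown A, knockdown B and control A was estimated at 76.5%, 98.6% and 103% of that of control B, and knockdown A listed 11953 loci at 0 where the other libraries listed 8131 to 8609. Knockdown A also stood apart in its profile: its Pearson's r with the other 3 libraries was 0.867 to 0.891 across tested loci, which are not independent replicates, against 0.940 to 0.957 among those 3. All 10 stem cell markers examined had a mean of at least 73.7 FPKM, with summed levels of 4821 and 4047 FPKM in knockdown cells and 3678 and 4494 FPKM in controls. Summed markers of other cells were lower than those of stem cells. Primitive endoderm held 2.32 and 2.64 FPKM in knockdown cells and 6.95 and 8.37 FPKM in controls. Fibroblasts held 3.91 and 2.37 against 9.94 and 3.72 FPKM, with Lum at 0 throughout. Trophoblast held 13.1 and 22.5 against 60.8 and 23.3 FPKM. Most of that sum was Krt8 and Krt18, with means of 11.6 and 16.6 FPKM. Cdx2, Elf5, Gcm1 and Hand1 had means of 0.21, 0.03, 1.18 and 0.34 FPKM. Neural cells held 55.4 and 49.9 against 63.2 and 65.3 FPKM. Most of the neural sum was Tubb3, which had a mean of 44.3 FPKM and so was not low. The part of these markers and of depth in the values below was not tested.

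For 9 of the 10 genes the difference between knockdown and control cells was positive, as for 47.1% of all tested loci, but none passed the test. Of the 10, 7 (Mdm2, Cdkn1a, Ccng1, Bax, Ei24, Btg2 and Phlda3) lay higher in both knockdown libraries than in both controls, where 15.0% of all tested loci did so. None lay below both controls, where 16.9% of all tested loci did. The median log2 fold change over the 10 was 0.37 on the log2(FPKM + 1) scale, beside -0.03 over all tested loci. In limma's test with Benjamini-Hochberg adjustment 0 of the 10 were called, as 0.0339% of all tested loci were, and their limma adjusted p ran between 0.918 and 0.986. At an unadjusted limma p under 0.05 the count was 1 of 10, beside 2.46% of all tested loci.

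Trp53 (mm9, chromosome 11, bases 69393860 to 69405375) was the exception in direction, at 84.0 and 136 FPKM in knockdown replicates A and B, against 160 and 131 FPKM in control replicates A and B. Only knockdown A lay below both controls, while knockdown B lay between them, so the groups overlapped. As a log2 fold change this was -0.43, with a standard error of 0.29, a 95% interval of -1.15 to 0.28 and a limma adjusted p of 0.918. Knockdown A minus knockdown B came to -0.69 on the same scale, a larger gap than that between the groups. Without knockdown replicate A the log2 fold change was -0.09, and without knockdown replicate B it was -0.78. A processed pseudogene, Trp53-ps, shares 97.7% of 353 aligned bases with the Trp53 transcript, and the sources used here do not say how reads that match both were counted, which makes this value uncertain.

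Of the 2 inhibitors, Mdm2 (mm9, chromosome 10, bases 117125930 to 117147814) stood at 96.3 and 114 FPKM in knockdown replicates A and B, against 88.5 and 76.7 FPKM in control replicates A and B. Both knockdown libraries lay above both controls, with knockdown B the highest. The log2 fold change was 0.34 (standard error 0.23, 95% interval -0.21 to 0.90), and 0.22 without knockdown replicate B. Mdm4 (mm9, chromosome 1, bases 134886421 to 134921925), which is not among the classical p53-induced genes, stood at 51.7 and 60.1 FPKM in knockdown cells, against 61.5 and 48.2 FPKM in control cells. The groups overlapped fully, with both knockdown values between the control values and the difference came to 0.03 on the log2 scale (standard error 0.25). A processed pseudogene, Mdm4-ps, shares 94.1% of 4184 aligned bases with Mdm4, so Mdm4 too is uncertain. The ratio of Mdm2 to Mdm4 FPKM was 1.86 and 1.90 in knockdown cells and 1.44 and 1.59 in control cells. A scaling factor for a whole library cancels in this ratio, but other kinds of normalization can change it. How often other pairs of genes separate in this way was not counted. The difference between Mdm2 and Mdm4 was not tested, and their intervals overlap.

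**Figure D1:**
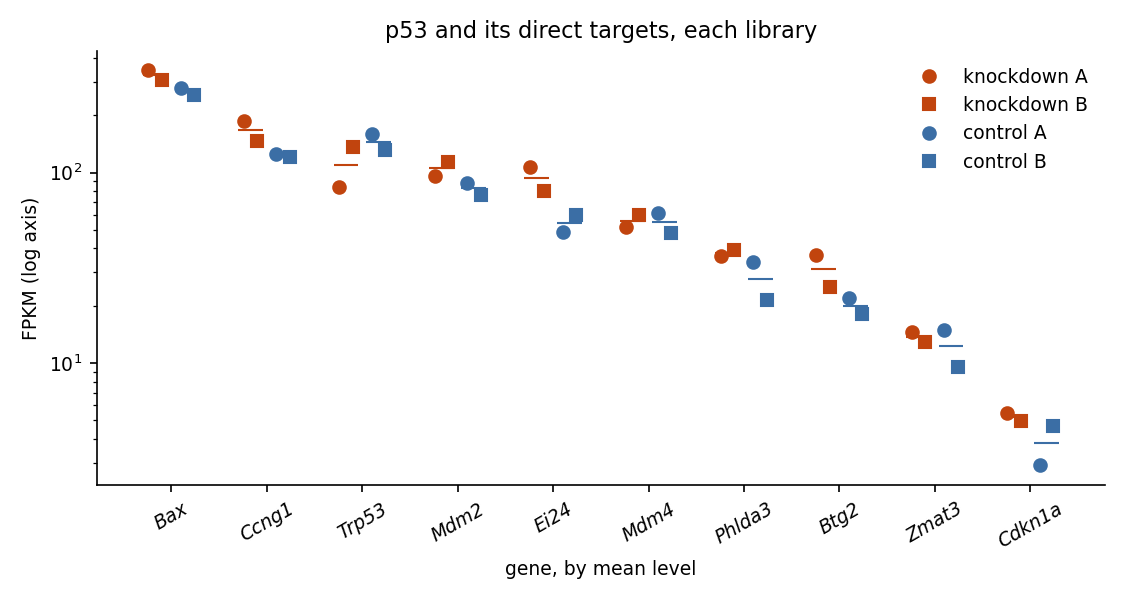
FPKM (log axis) of the 10 genes in each library, ordered by mean level, with knockdown libraries in orange to the left of control libraries in blue, circles for replicate A, squares for replicate B and lines at the group means. For 7 genes both orange points lie above both blue points; Trp53, Mdm4 and Zmat3 overlap.

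Among the targets that act on the cell cycle, Cdkn1a encodes p21, an inhibitor of cyclin-dependent kinases and the best known effector of p53-dependent arrest. Cdkn1a (mm9, chromosome 17, bases 29227930 to 29237667) was the least abundant of the 10, at 5.48 and 4.95 FPKM in knockdown replicates A and B, against 2.91 and 4.70 FPKM in control replicates A and B. The groups did not overlap, but knockdown B exceeded control B by little, and each library held only an estimated 22.0 to 35.9 fragments of it. Its log2 fold change was 0.40 (standard error 0.42, 95% interval -0.62 to 1.41), and it was 0.12 with control A removed, against 0.67 with control B removed. Ccng1 (mm9, chromosome 11, bases 40562053 to 40568788) encodes cyclin G1, which brings a phosphatase to Mdm2. It stood at 187 and 147 FPKM in knockdown cells, against 125 and 121 FPKM in control cells, with 1719 to 2063 estimated fragments a library. Here the controls lay close together and both knockdown libraries above them, and the log2 fold change was 0.43 (standard error 0.22, 95% interval -0.11 to 0.98), or 0.26 without knockdown replicate A. Btg2 (mm9, chromosome 1, bases 135971441 to 135975732), an antiproliferative protein that works with the deadenylase that shortens messenger RNA tails, stood at 37.1 and 25.0 FPKM in knockdown cells, against 22.0 and 18.1 FPKM in control cells. Knockdown A was the highest library and knockdown B lay nearer to the controls. The log2 fold change was 0.59 (standard error 0.30, 95% interval -0.15 to 1.33), and it was 0.31 without knockdown replicate A.

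Cdkn1a and Ccng1 are also the pair whose promoters hold the closest match to the p53 binding element. RefSeq promoter windows of 300 bases (GRCm38.p6, 250 before and 50 after each gene start) were searched for the p53 consensus half-site of 10 letters repeated without a gap, which reads the same on both strands. A window was found for 9 of the 10 genes, all but Zmat3. Of 32851 windows, 29 (0.0883%) held a match with at most 1 mismatch over the 20 letters, and 2 of these 29 were the windows of Cdkn1a and Ccng1. These 2 are shown with 30 flanking bases on each side, on the strand of the gene, with the 20 matched letters in capitals.
Cdkn1a (chr17:29090898-29090977, + strand): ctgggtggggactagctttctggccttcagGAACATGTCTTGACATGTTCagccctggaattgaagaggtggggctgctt
Ccng1 (chr11:40755432-40755511, - strand): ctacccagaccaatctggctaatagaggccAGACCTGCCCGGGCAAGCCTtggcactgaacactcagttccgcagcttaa
The Cdkn1a match begins at position -51 from the first of the 2 starts that RefSeq gives the gene, and the Ccng1 match at -195. The deposited Cdkn1a row joins 2 RefSeq transcripts, so RNA from the 2 starts cannot be told apart.

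The best match in the windows of the other members was looser. The 20 bases of each follow, with the middle 4 letters of each half-site in capitals, shown so that they can be compared with the pair above.
Trp53: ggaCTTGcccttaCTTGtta
Bax: agcATATcccaggCAAGctt
Mdm4: aggTATGctgtggCAAGcct
Btg2: gggAAAGtccgggCAGAgcc
Ei24: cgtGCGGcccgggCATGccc
Mdm2: gaaCTTGcctagcGACCatt
Phlda3: ggcCCTGtccgggCGGGtgc
Trp53, Bax and the first Mdm4 window had 3 mismatches, as 6.29% of all windows do or better, Btg2 had 4 (30.2%), and Mdm2, Ei24, Phlda3 and the second Cdkn1a window had 5 (76.6%). The second Mdm4 window had 6 (98.5%). Ei24 and Btg2, whose log2 fold changes were the largest, were thus not among the close matches in these windows. A match is a description of letters, and sites outside the windows, such as those in introns, were not searched.

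Of the targets tied to cell death and stress, Ei24 (mm9, chromosome 9, bases 36586737 to 36604978), a membrane protein of the endoplasmic reticulum with a role in autophagy, had the largest difference. It stood at 107 and 80.2 FPKM in knockdown replicates A and B, against 48.7 and 59.8 FPKM in control replicates A and B. Both knockdown libraries lay well above both controls, and knockdown A was the highest. The means were 93.6 ± 19.0 FPKM in knockdown cells and 54.2 ± 7.82 FPKM in control cells (SD, n = 2 each), a ratio of 1.73. Its log2 fold change of 0.77 (standard error 0.26, 95% interval 0.14 to 1.40) ranked 101 by limma p among tested loci, with an unadjusted limma p of 0.0241 and a limma adjusted p of 0.918. It was the 1 member whose interval left out 0. The log2 fold change was 0.56 with knockdown A removed, 0.97 with knockdown B removed, 0.62 with control A removed and 0.91 with control B removed.

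Bax (mm9, chromosome 7, bases 52717064 to 52722268), which opens pores in the outer mitochondrial membrane during apoptosis, was the most abundant of the 10. It stood at 344 and 306 FPKM in knockdown cells, against 280 and 257 FPKM in control cells. The groups did not overlap, and the difference was small, at 0.27 on the log2 scale (standard error 0.20, 95% interval -0.22 to 0.77). Phlda3 (mm9, chromosome 1, bases 137662661 to 137665711), which competes with the kinase Akt for membrane lipids, stood at 36.3 and 39.4 FPKM in knockdown cells, against 34.1 and 21.4 FPKM in control cells. Control A lay just under both knockdown libraries and control B far under them. The log2 fold change of 0.47 (standard error 0.30) thus depended on control B, since it was 0.14 without that library and 0.79 without control replicate A. Zmat3 (mm9, chromosome 3, bases 32233715 to 32266360), a zinc finger protein that binds RNA, stood at 14.6 and 12.9 FPKM in knockdown cells, against 15.0 and 9.50 FPKM in control cells. Both knockdown values lay between the controls, and the log2 difference was 0.18 (standard error 0.34); without control replicate B it was -0.12. The Zmat3 locus also shares its interval with 4930429B21Rik, and without knowledge of the strand setting reads of the 2 cannot be told apart.

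**Figure D2:**
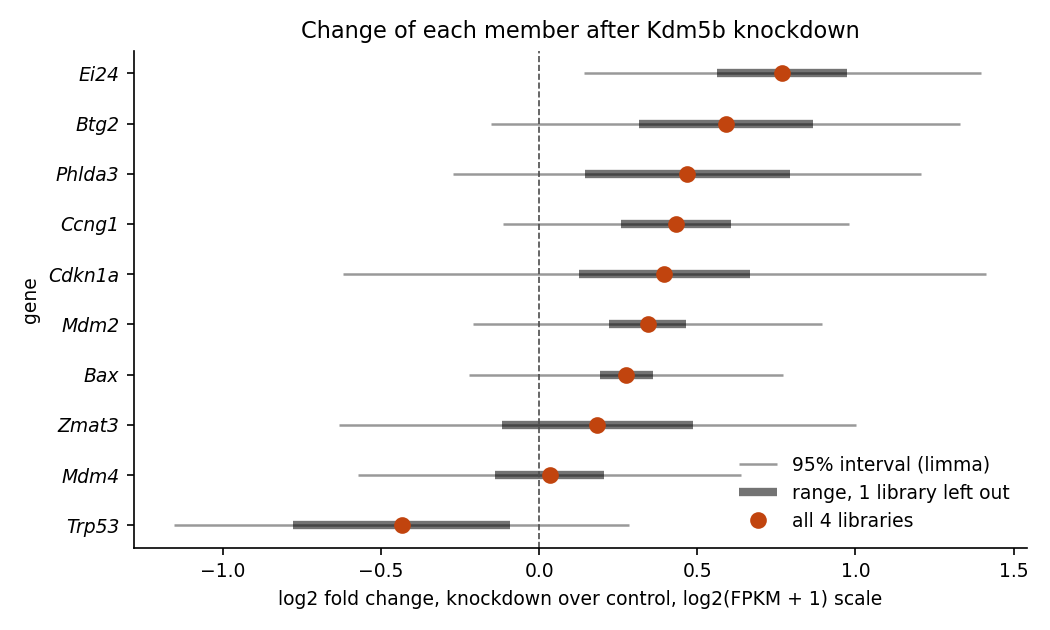
Log2 fold change, knockdown over control, of each of the 10 genes (orange point), with its 95% limma interval (thin line) and the range when 1 library is left out (thick bar). Ei24 lies highest at 0.77 and is the 1 gene whose interval leaves out 0; Trp53 lies lowest at -0.43, and the bars of Mdm4 and Zmat3 cross 0.

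The spread between libraries of 1 group was as large as many of these differences. For 5 of the 10 genes (Mdm2, Ccng1, Bax, Ei24 and Btg2) knockdown exceeded control by more than the difference between the 2 knockdown libraries and by more than that between the 2 controls, as 8.44% of all tested loci did. For Trp53 the gap between the knockdown libraries was the larger, and for Mdm4, Cdkn1a, Zmat3 and Phlda3 that between the controls, at 0.34, -0.54, 0.60 and 0.65 for control A minus control B on the log2 scale. Control B was the lowest library for 7 of the 10, where it was the lowest for 18.1% of all tested loci. Knockdown A was the highest for 5 of the 10, where it was the highest for 33.2% of all tested loci. Against the control mean, the median of the 10 was 0.38 in knockdown A and 0.29 in knockdown B, where the medians over all tested loci were -0.04 and 0.01. Without control replicate B the median over the 10 was 0.23, and Mdm4 and Zmat3 turned negative.

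Abundant loci tended to lie higher in the knockdown libraries, and 6 of the 10 genes (Trp53, Mdm2, Mdm4, Ccng1, Bax and Ei24) fell in the highest of 5 equal groups of tested loci by mean level. In that group the median log2 fold change was 0.07, against -0.22 in the lowest of the 5. Its log2 fold changes were above 0 at 60.6% of loci, against 39.0% in the lowest group. Both knockdown libraries lay above both controls at 17.6% of loci of the highest group. With quantile normalization, which gives all libraries 1 distribution, the median over the 10 was 0.36, and 6 of 10 lay above both controls, as 17.3% of all tested loci then did, the groups of Mdm2 then overlapping.

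**Figure D3:**
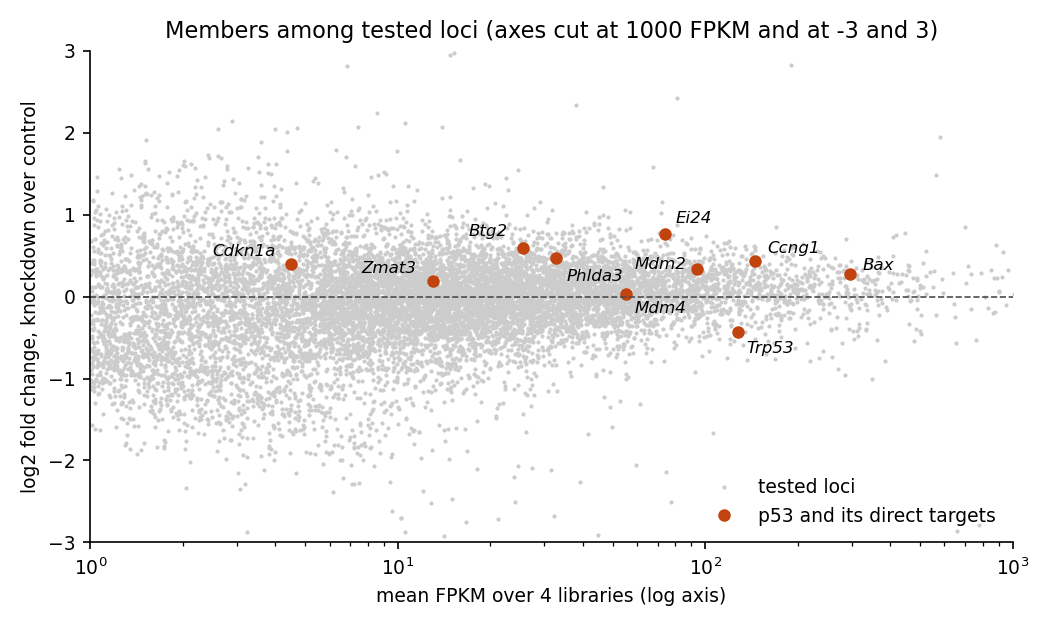
Log2 fold change, knockdown over control, against mean FPKM over the 4 libraries (log axis) for tested loci (grey) and the 10 genes (orange); loci beyond 1000 FPKM or beyond -3 and 3 are not shown. The 10 genes lie inside the grey cloud, 9 of them above 0.

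Levels differed widely between the 10 genes, and their order was not the same in every library. By mean FPKM over the 4 libraries the order ran Bax (297), Ccng1 (145), Trp53 (128), Mdm2 (93.9), Ei24 (73.9), Mdm4 (55.4), Phlda3 (32.8), Btg2 (25.5), Zmat3 (13.0) and Cdkn1a (4.51). FPKM is scaled to length, which allows a rough order only. The pseudogenes of Trp53 and Mdm4 and the locus that overlaps Zmat3 leave the places of these genes uncertain. Ranges over the 4 libraries overlapped between each gene and the next from Ccng1 down to Mdm4, and between Phlda3 and Btg2. Ccng1 lay above Trp53 in knockdown replicates A and B (187 and 147 against 84.0 and 136 FPKM). It lay below Trp53 in control replicates A and B (125 and 121 against 160 and 131 FPKM), a reversal that was not tested. Bax lay above Ccng1, Mdm4 above Phlda3, Btg2 above Zmat3 and Zmat3 above Cdkn1a in all 4 libraries without overlap of the ranges. Within the tested loci of a library, Trp53 lay at percentile 90.6 and 94.7 in knockdown replicates A and B. It lay at 95.7 and 94.2 in control replicates A and B. Cdkn1a lay at 32.5 and 27.3 in knockdown cells, against 15.7 and 26.7 in control cells. Percentiles of low values compare poorly with knockdown A, which listed more loci at 0. Ulk2 lay at percentile 9.77 there with 0.43 FPKM, but at 7.57 with 1.47 FPKM in knockdown B. The highest library exceeded the lowest by 1.27-fold for Mdm4, the steadiest of the 10, and by 2.20-fold for Ei24.

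Set against Trp53 in the same library, each of the 9 other genes was higher in both knockdown libraries than in both controls, as were 26.0% of all tested loci. In FPKM itself the groups of Mdm4 and of Zmat3 overlapped. The Mdm2 to Trp53 ratio was 1.15 and 0.839 in knockdown replicates A and B, against 0.552 and 0.586 in control replicates A and B. The Ei24 ratio was 1.27 and 0.590 in knockdown cells, against 0.304 and 0.457 in control cells, and the Ccng1 ratio was 2.23 and 1.08 against 0.778 and 0.923. Knockdown A gave the highest ratio in all 9 cases, and in knockdown B the margin over the nearest control was narrow for several, at 0.0364 against 0.0359 for Cdkn1a and 0.0949 against 0.0934 for Zmat3. All 9 ratios share the Trp53 value, which was lowest in knockdown A, so they are not 9 separate observations.

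**Figure D4:**
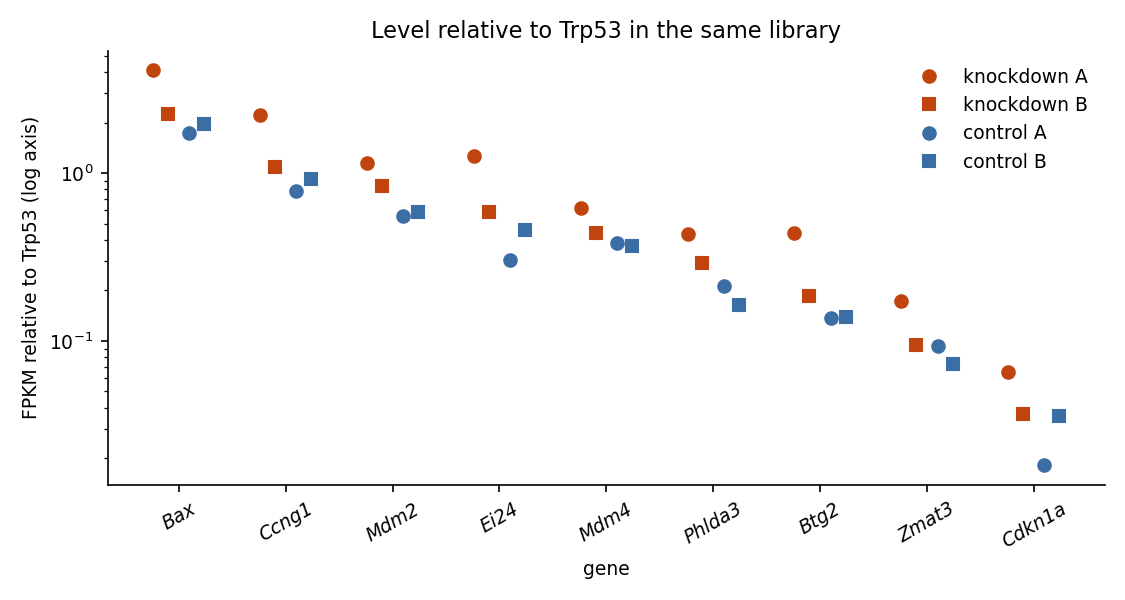
FPKM of each of 9 genes relative to that of Trp53 in the same library (log axis), ordered by the control mean, with knockdown libraries in orange to the left of controls in blue. Knockdown A lies highest for every gene; knockdown B lies just above the controls for Cdkn1a and Zmat3.

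The profile of Trp53 over the 4 libraries was compared with those of all tested loci by root mean square distance on the log2 scale, after removing each gene's mean. The nearest 3 named loci were Shoc2, at 11.8 and 18.8 FPKM in knockdown cells and 23.3 and 18.1 FPKM in control cells, Ddx4 and Mier3, each at a distance of 0.03. All 3 shared the low value of Trp53 in knockdown A and its high value in control A. Of its own pathway Mdm4 was nearest, at 0.29, and Ei24 farthest, at 0.74; 22.3% and 86.4% of tested loci lay as near or nearer. With 4 libraries many loci match any profile closely.

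Around these 10 genes, 77 others of the pathway were listed in 6 groups. All but Ptprv matched a row, and 72 were tested. None passed limma's test over all loci, and 1, Perp, had an unadjusted limma p under 0.05. Both knockdown libraries lay above both controls for 14 (19.4%) and below both for 10 (13.9%), shares near the 15.0% and 16.9% of all tested loci. The 4 lists of other p53 targets (46 tested) were not checked for induction by p53 in mouse cells. They gave 12 above, or 26.1%, and 6 below, or 13.0%, beside 15.0% and 16.9% of all tested loci. Their median log2 fold change was 0.10, which lies nearer to that of all loci than the 0.37 of the 10 genes, and it turned to -0.08 without control replicate B.

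The cell death list had 5 of 12 tested genes above both controls, or 41.7%, and 0 below both, beside 15.0% and 16.9% of all tested loci. The list was mixed in direction, with 7 log2 fold changes above 0 and 5 below 0. Its median log2 fold change was 0.21, and it was 0.39 without control replicate A but 0.02 without control replicate B. Perp, a desmosome protein that p53 induces during apoptosis, stood at 78.6 and 68.2 FPKM in knockdown replicates A and B, against 45.6 and 26.4 FPKM in control replicates A and B. Neither group overlapped the other. The difference of 1.05 on the log2 scale had a standard error of 0.32 and a limma adjusted p of 0.918. Apaf1, the scaffold on which caspases are activated after mitochondrial pores open, stood at 28.0 and 24.1 FPKM in knockdown cells against 19.4 and 14.8 FPKM in control cells. Pidd1, a death domain protein, had 10.3 and 9.49 FPKM in knockdown cells against 7.79 and 5.75 FPKM in control cells. The DNA repair and nucleotide supply list had 4 of 9 tested genes above both controls (44.4%) and 2 below (22.2%), beside the same 15.0% and 16.9%. Its median was 0.18, but 0.04 with control A removed and 0.09 with knockdown A removed. Polk, a polymerase that copies past lesions, stood at 16.9 and 13.3 FPKM in knockdown cells against 12.8 and 8.51 FPKM in control cells. Rrm2b, a subunit of ribonucleotide reductase, was low, at 5.33 and 2.34 FPKM in knockdown cells against 2.05 and 2.26 FPKM in control cells, so that knockdown B hardly exceeded the controls. Fancc, a Fanconi anemia protein, overlapped, with a log2 fold change of -0.44.

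Of 11 tested growth arrest and feedback genes, 2 lay above both controls (18.2%) and 1 below (9.09%), shares near the 15.0% and 16.9% of all tested loci. Their median log2 fold change was 0.19, and it turned to -0.06 without control replicate B. Ccng2, the cyclin related to Ccng1, stood at 2.11 and 8.81 FPKM in knockdown replicates A and B, against 13.7 and 11.4 FPKM in control replicates A and B. It was thus lower in both knockdown libraries, far more so in A, in contrast to Ccng1. The kinase Plk2 had a log2 fold change of 0.36 with groups apart, and Plk3, which overlapped, one of -0.39. In the metabolism and stress list 1 of 14 tested genes lay above both controls (7.14%) and 3 below (21.4%, near the 16.9% of all tested loci). The median was -0.03, and it moved to -0.27 with control B removed and 0.03 with control A removed. Gdf15, a secreted stress factor, stood at 0.34 and 3.99 FPKM in knockdown cells against 10.5 and 4.98 FPKM in control cells. Ulk2, a kinase of autophagy, stood at 0.43 and 1.47 FPKM in knockdown cells against 1.97 and 2.31 FPKM in control cells. Both were near 0 in knockdown A, the library of least estimated depth, and their log2 fold changes had standard errors of 0.73 and 0.61. Fdxr, a mitochondrial reductase, stood at 24.1 and 12.3 FPKM in knockdown cells against 10.5 and 10.8 FPKM in control cells. Knockdown A was thus the extreme library for Ccng2, Gdf15, Ulk2 and Fdxr, low for 3 of them and high for Fdxr.

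Of 21 tested family members, ligases and other regulators, 1 lay above both controls (4.76%, beside 15.0% of all tested loci) and 4 below (19.0%, beside 16.9%). Their median log2 fold change was 0.06, -0.05 with control A removed, -0.06 with knockdown B removed and 0.02 with control B removed. Hipk2, a kinase of p53, stood at 0.82 and 2.90 FPKM in knockdown replicates A and B, against 5.23 and 3.22 FPKM in control replicates A and B. It was low, above all in knockdown A, and its log2 fold change had a standard error of 0.58. The p53-binding protein Trp53bp2 stood at 4.28 and 4.23 FPKM in knockdown cells against 6.02 and 7.72 FPKM in control cells. The acetyltransferase Ep300 overlapped, at 4.14 and 16.7 FPKM in knockdown cells against 21.6 and 10.7 FPKM in control cells. Among the 5 kinases that signal DNA damage, Chek1, Chek2 and Atr had log2 fold changes of 0.28, 0.16 and -0.23, all with overlapping groups. Of the 5, 1 lay above both controls (20%) and 0 below, beside 15.0% and 16.9% of all tested loci. That kinase, Prkdc, was picked after seeing its values. It stood at 14.7 and 14.1 FPKM in knockdown cells against 13.0 and 13.6 FPKM in control cells. Its log2 fold change was 0.10 (standard error 0.28).

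**Figure D5:**
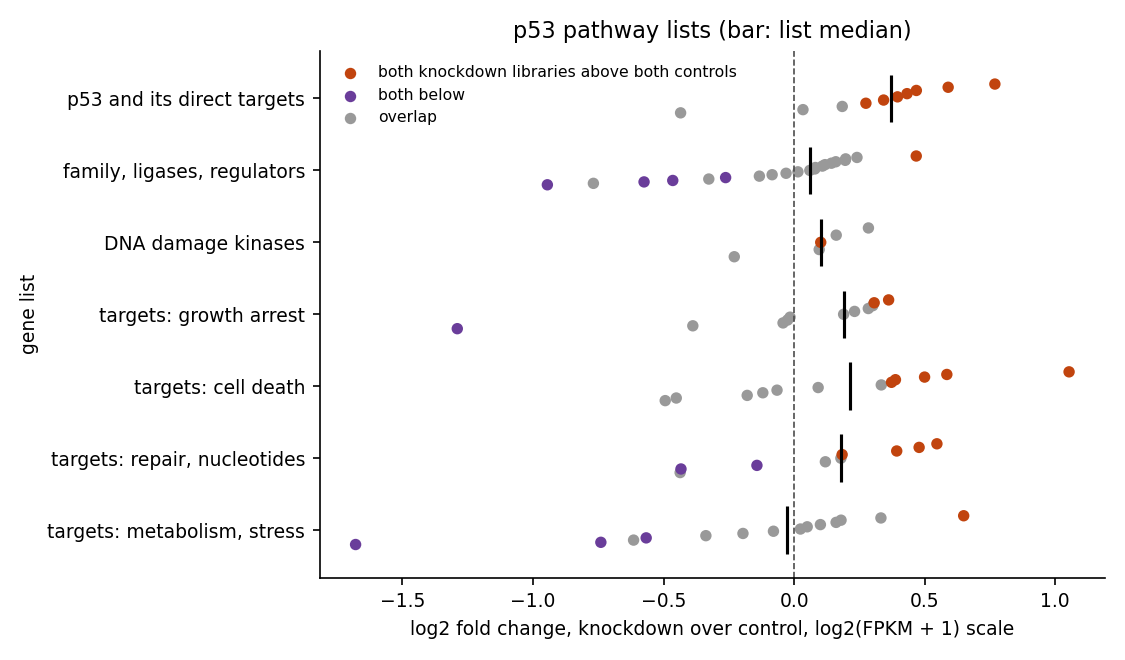
Log2 fold change, knockdown over control, of every tested gene of the 10 and of 6 further lists, one row a list, with a bar at the list median; orange points have both knockdown libraries above both controls, purple both below, grey overlap. Orange points number 7 in the top row, 5 among cell death and 4 among repair genes; purple points number 4 among regulators and 3 among metabolism genes.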

How the data were processed

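RNA of 4 libraries of mouse embryonic stem cells was analysed from the FPKM values that the authors deposited for each locus and library (fragments scaled to transcript length and to the fragments mapped). The mm9 build and the tools Cufflinks and Cuffdiff are named per the submitters' processing notes; for versions, aligner and strand setting the entry is: not given in the sources used here. Loci were named through their RefSeq identifiers with a GRCm38.p6 table, used for names and promoter sequence only; 23241 of 23697 loci received 1 symbol, and each of the 10 members matched 1 row.

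Where the mean reached 1 FPKM, loci were tested on log2(FPKM + 1), a scale on which low genes appear to change less than they do. The test was limma 3.58.1 in R 4.3.3 (group alone, eBayes with trend, Benjamini-Hochberg over 11784 loci, two-sided, threshold 0.05). With 2 libraries against 2, no exact permutation test can fall under p = 0.333. Depth was estimated from the steps between low FPKM values over transcript lengths. Near-identical copies were sought with BLAST 2.17.0. Tables were made with pandas 2.3.3 and numpy 2.4.6 in Python 3.11.15, and plots with matplotlib 3.10.9.

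The members, the lists and the tests were chosen with earlier results of these data known, and the promoter match was defined after the sequences were seen. Named genes are Kdm5b, the members, the 3 genes of each list with the largest absolute log2 fold change, and the 3 loci nearest to Trp53 in profile; Prkdc was added after its values were seen. Alternatives were other pseudocounts, filters, scalings and variance models, the replicate letter as a block, and each library left out.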

Additional observations from a re-analysis of the deposited data

How the results depend on the processing

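None of the 10 genes and none of the genes of the 6 lists passed limma's test under any of 13 alternatives. The count of loci called, 4 with all libraries, was 7 with the replicate block, 2 with eBayes without trend and 1 with no filter on low values, and 0 to 134 with 1 library left out, the 134 arising without knockdown replicate B and 13 without knockdown replicate A. In such fits 1 group holds a single library that is assumed to vary like the other group. The correlation of same-letter deviations was -0.07, which gives no sign that the letters pair the libraries. None of the 10 genes was called with the block, which in this balanced layout cannot alter their fold changes or the separation of groups. The median over the 10 ran from 0.23 to 0.45 with 1 library left out and from 0.34 to 0.39 under the other alternatives. Genes with groups apart, in either direction, numbered 7 to 10 with 1 library left out and 6 or 7 otherwise. With 1 library left out groups separate more easily, as 27.1% to 36.8% of all tested loci then lie above and 29.5% to 42.3% below. Of the 10 without control replicate B, 7 lay above and Trp53, Mdm4 and Zmat3 below the remaining control. Cdkn1a falls under the filter at a mean of 5 FPKM and has no value there. Filters, variance models and the block cannot alter a fold change here, and removing 1 library cannot reverse a gene whose groups are apart. Many of the 129 values of the 10 genes under the alternatives thus could not turn, and 126 kept their direction. The 3 that did not were Mdm4 at -0.14 without control replicate B and -0.07 without knockdown replicate B, and Zmat3 at -0.12 without control replicate B; the cause was not tested. Over the 4 leave-one-out fits Mdm4 ran from -0.14 to 0.21 and Zmat3 from -0.12 to 0.49. Cdkn1a had the fewest estimated fragments of the 10 genes, at 22.0 to 35.9 a library, and the part of depth in its values was not tested. The limma intervals of the 10 genes reached 0.50 to 1.02 log2 units to either side, and all but that of Ei24 held 0.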
